A study of Mus musculus with 29 samples.

Results

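The HoxC cluster of the mouse is the set of 9 homeobox genes Hoxc4, Hoxc5, Hoxc6 and Hoxc8 to Hoxc13, taken here by gene symbol from the 23337 genes counted in each of 29 RNA-seq libraries. Hox proteins bind DNA through the homeodomain and give paraxial mesoderm, the tissue that segments into somites and then vertebrae, its identity along the head to tail axis. Within a cluster the genes lie in a fixed order, and low-numbered genes are generally active earlier and further towards the head than high-numbered genes, which is known as collinearity. The question followed here is how the level of each gene relates to its number in the cluster, to the axial level of the tissue and to culture with or without sclerotome inducers.

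All libraries came from E9.0 embryos of C57BL/6 background carrying a Dll1-YFP mark, which labels cells of the Dll1 lineage, among them presomitic mesoderm and its descendants. DIR (n = 4) is sorted Dll1-lineage cells of presomitic mesoderm origin cultured with LDN and SAG, a BMP receptor inhibitor and a Smoothened agonist, and CTRL (n = 4) is the same material cultured without them. The somite series was sorted without culture: SOMA (n = 3) comprises the presomitic mesoderm with the most recently segmented somite, SOMB (n = 4) somites 2 to 5, SOMC (n = 4) somites 6 to 9, and SOMD (n = 4) somites from 10 onwards. Somites are therefore numbered from the newest, and the last somite of SOMD is given as 13, 14, 15 and 16 in its 4 libraries, in step with the replicate number, so its upper limit is uncertain. MUT and WT (n = 3 each) are unsorted trunk tissue. The labels do not state the mutation; the study's title names the lncRNA PEAT, matched to AI646519, which had 0 CPM in every MUT library, against 0.692, 0.538 and 1.63 CPM in WT libraries 1 to 3. The culture time, the order of sorting and culture, and whether replicates were separate embryos or cultures are not given, so p-values measure the spread between these libraries, which may be technical. A somite nearer the head is also older, so axial level and time since formation cannot be told apart.

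Gene totals ran from 11541131 to 44363411 reads per library. SOMC1 and SOMC4, and SOMD1 and SOMD4, had counts that varied by only 1.95 and 1.91 times the sampling variance, against at least 9.24 times for every other pair within a group; they were kept as separate libraries, and results are also given with each pair summed. These 4 libraries, SOMA1 and SOMB1 also had the highest share of reads outside any gene, 12.0 to 12.8%, against 7.57 to 10.7% in the other 9 libraries of the series; they are called the high-share and low-share libraries. Presomitic mesoderm markers (Msgn1, Tbx6, T, Hes7, Dll1 and Mesp2) summed to 408 to 606 CPM for SOMA, 24.7 to 52.8 for SOMB, 20.2 to 26.0 for SOMC and 10.5 to 16.9 for SOMD, lowest in the oldest somites. All 6 averaged above 1 CPM in SOMA, 4 in SOMB and 1 each in SOMC and SOMD. The sums in SOMC and SOMD thus rest mainly on 1 gene. Summed somite markers (Meox1, Meox2, Tcf15, Uncx, Pax1, Pax9) were at 285 to 559 CPM in DIR, 285 to 450 in CTRL, 396 to 680 across the somite series, 418 to 480 in MUT and 394 to 423 in WT. Summed neural tube markers were at most 101 CPM in any sorted library, against 184 to 327 CPM in the trunk libraries. Lateral plate marker sums went the other way, with every library of the somite series above every trunk library. The lowest sum of the series was 206 CPM (a SOMB library) and the highest 426 CPM (a SOMD library). Trunk sums lay between 88.9 CPM (MUT) and 182 CPM (WT). Whether lateral plate cells contributed to the Hox levels of the series was not tested.

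The cluster occupies chr15:102921103-103036852 of GRCm38 (115.75 kb, GENCODE M21 annotation), with every gene on the plus strand and Hoxc13 at the 5′ end and Hoxc4 at the 3′ end. The 60 bases of the last coding exon around the homeodomain's recognition helix, which contacts the bases of DNA, are shown for 8 of the genes because they let the members be compared in the part of the protein that reads DNA. Capitals mark the 24 positions at which these 8 genes have the same base, and sequences are from the annotated GENCODE M21 transcripts.
Hoxc4: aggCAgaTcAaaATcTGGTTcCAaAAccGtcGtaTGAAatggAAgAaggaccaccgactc
Hoxc6: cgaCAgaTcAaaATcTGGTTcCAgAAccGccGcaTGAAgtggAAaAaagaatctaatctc
Hoxc8: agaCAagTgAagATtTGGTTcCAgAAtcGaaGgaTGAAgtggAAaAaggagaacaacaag
Hoxc9: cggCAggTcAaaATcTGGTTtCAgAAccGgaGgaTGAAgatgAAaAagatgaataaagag
Hoxc10: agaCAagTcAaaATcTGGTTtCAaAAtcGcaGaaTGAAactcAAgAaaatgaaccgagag
Hoxc11: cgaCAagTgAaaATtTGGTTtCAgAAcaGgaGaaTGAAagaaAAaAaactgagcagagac
Hoxc12: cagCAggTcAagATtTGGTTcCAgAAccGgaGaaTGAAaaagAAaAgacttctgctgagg
Hoxc13: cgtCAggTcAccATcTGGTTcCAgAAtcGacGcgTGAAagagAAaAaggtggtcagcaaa
Of the genes shown, Hoxc4 and Hoxc6, Hoxc9 and Hoxc10, and Hoxc10 and Hoxc11 were the pairs with the most identical bases over this stretch (75.0% each). The longest exact run that principal transcripts of 2 members shared was 22 bases, between Hoxc8 and Hoxc9. Outside the cluster, Hoxc9 shared a run of 50 bases with Hoxb9 and Hoxc5 a run of 31 with Hoxa9, and the other members at most 28 with any of the 37 Hox transcripts compared. Reads confined to those runs would align equally well to both genes. The files keep multiply aligned reads in a summary line, outside the gene counts. The only exons of 2 members that overlap are those of Hoxc5 and Hoxc10, over 166 bases, or 8.70% of Hoxc10's exonic bases.

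Along the somite series the make-up of the cluster's RNA went from high-numbered genes near the tail to low-numbered genes towards the head. Compared per kb of transcript, Hoxc10 had the highest mean level in SOMA, at 75.5 ± 8.97 CPM per kb (SD, n = 3), Hoxc8 in SOMB at 38.6 ± 10.2 and in SOMC at 49.3 ± 12.2, and Hoxc4 in SOMD at 25.8 ± 5.39 (SD, n = 4 each). The mean gene number weighted by level per kb lay between 7.68 and 8.24 for SOMA libraries, 6.78 and 7.86 for SOMB, 6.27 and 6.93 for SOMC, and 5.32 and 5.65 for SOMD. SOMA overlapped SOMB and SOMB overlapped SOMC, while every SOMD library lay below every SOMC library. Hoxc10 to Hoxc13 together made 34.5 to 50.2% of the cluster's level per kb for SOMA, 7.17 to 28.3% for SOMB, 0.117 to 7.58% for SOMC and 0 to 0.0716% for SOMD. In these bulk libraries, fewer cells that express a gene and less RNA per cell cannot be told apart.

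**Figure D1:**
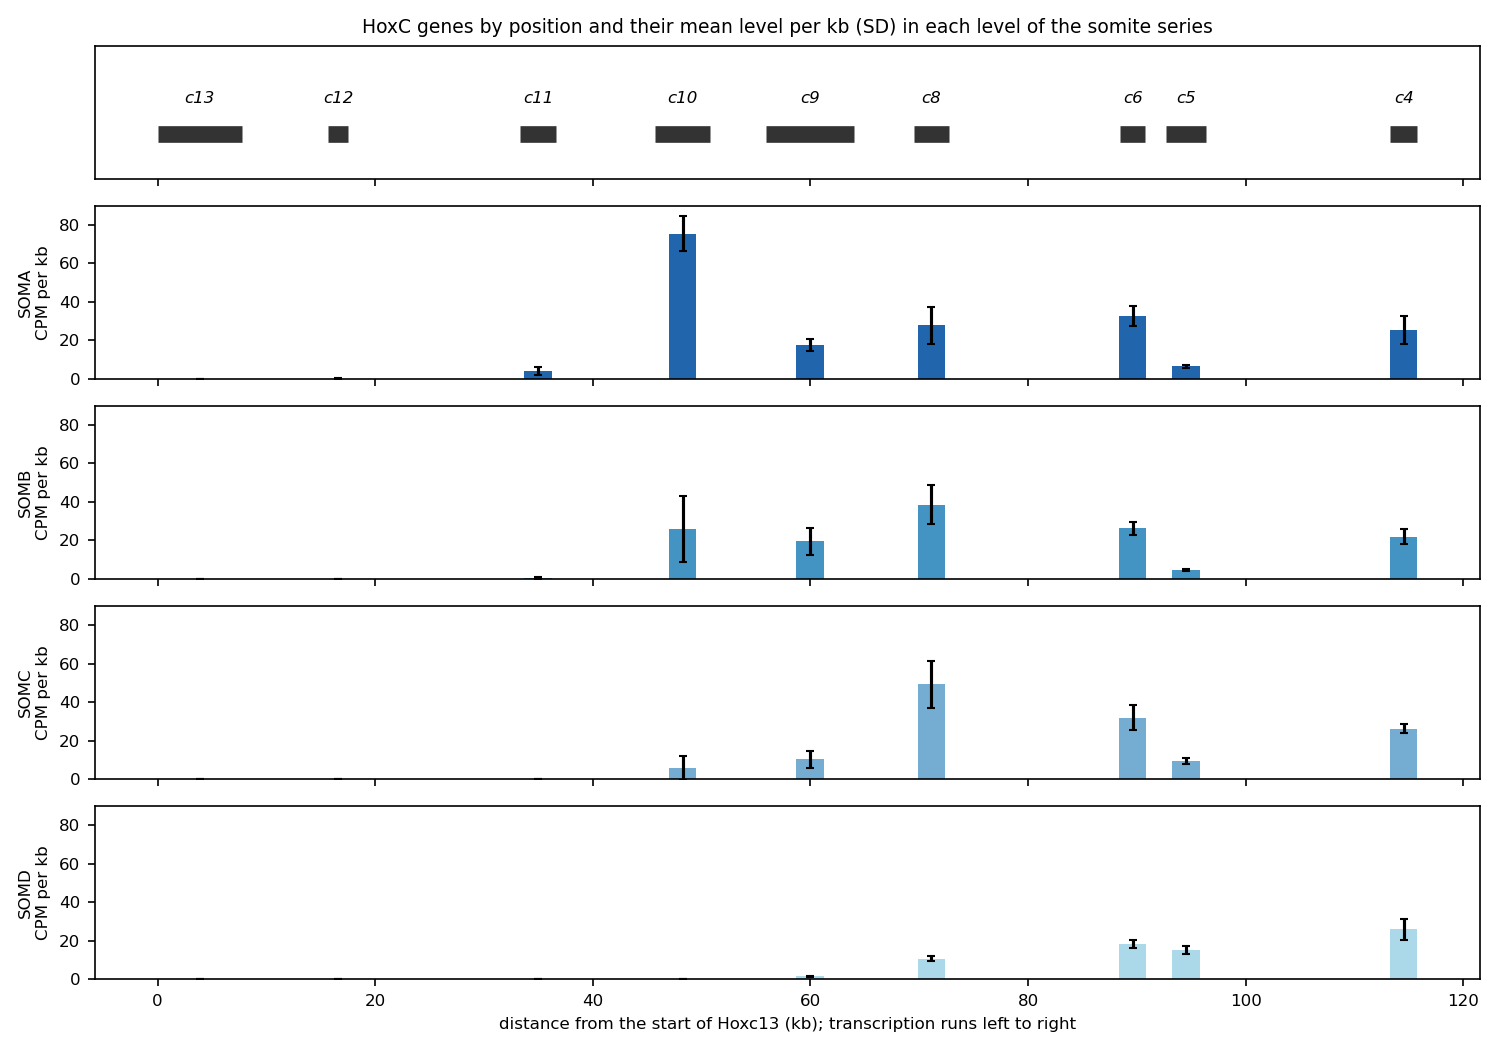
The 9 genes are drawn by distance in kb from the start of Hoxc13, with bars for the mean level per kb of principal transcript (CPM per kb, error bars SD; SOMA n = 3, others n = 4) in SOMA, SOMB, SOMC and SOMD. The tallest bar is Hoxc10 in SOMA (75.5 CPM per kb), Hoxc8 in SOMB and SOMC (38.6 and 49.3) and Hoxc4 in SOMD (25.8).

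**Figure D2:**
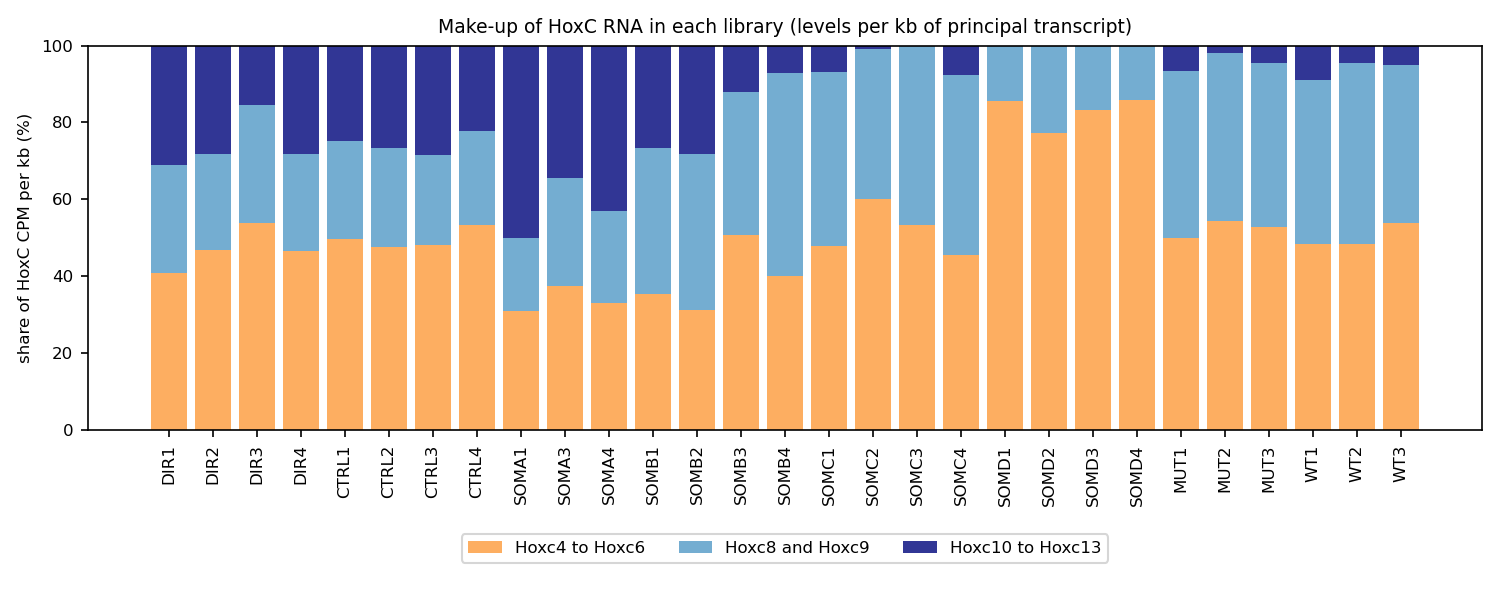
Bars give the share (%) of the cluster's summed CPM per kb in each library that came from Hoxc4 to Hoxc6, from Hoxc8 and Hoxc9, and from Hoxc10 to Hoxc13. The last share was 34.5 to 50.2% in SOMA libraries and at most 0.0716% in SOMD libraries.

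Among the posterior members, Hoxc10, which in the mouse acts in the lumbar and hindlimb region, had its highest level in SOMA and was nearly undetected in SOMD. It had 147, 126 and 159 CPM in SOMA libraries 1, 3 and 4, then 75.9, 80.0, 24.7 and 18.7 CPM in SOMB1 to SOMB4. In SOMC1 to SOMC4 it had 20.1, 1.75, 0.261 and 22.5 CPM, and in SOMD1 to SOMD4 it had 0, 0, 0 and 0.0711 CPM, the last from 2 reads. SOMA and SOMD each stood apart from every other group of the series, while within SOMB and within SOMC 2 libraries were high and 2 low. The 2 high SOMC libraries, SOMC1 and SOMC4, are a near-identical pair, so they may not be separate observations. SOMB did not overlap SOMA, at 49.8 ± 32.6 CPM in SOMB (SD, n = 4) and 144.1 ± 17.1 CPM in SOMA (SD, n = 3), yet the step missed the threshold (log2 fold change -1.53 ± 0.66 SE, edgeR adjusted p = 0.206). In SOMC against SOMB the value was -2.09 ± 0.67 (edgeR adjusted p = 0.205).

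SOMD held 2 Hoxc10 reads in all, against 1041 in SOMC, a SOMC over SOMD ratio of 453 after scaling for depth (95% counting interval 125 to 3746). Hoxc10 fell in SOMD against SOMC (edgeR adjusted p = 0.0200) and against SOMA (2.18e-05), where the reads were 2 in SOMD and 8339 in SOMA, a SOMA over SOMD ratio of 4928 (1364 to 40698). The intervals cover counting error only, and the fitted log2 values at such low counts depend on the small constant added by the model. With the near-identical pairs summed, the SOMD against SOMC call was lost (edgeR adjusted p = 0.138), and so it was on leaving out SOMC1, SOMC4, SOMD1 or SOMD4 alone (0.0582, 0.0659, 0.0832 and 0.160).

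Hoxc11, a gene of the sacral region and hindlimb, averaged 4.13 ± 2.06 CPM per kb in SOMA (SD, n = 3), where Hoxc10 averaged 75.5. It had 13.2, 5.70 and 6.19 CPM in SOMA, 3.08, 0.684, 0.274 and 0.0737 CPM in SOMB, 0.198, 0, 0 and 0.409 CPM in SOMC, and 0.0663, 0, 0 and 0.0356 CPM in SOMD. Every SOMA library was above every SOMB library, and Hoxc11 fell in SOMB against SOMA (log2 fold change -2.92 ± 0.65, edgeR adjusted p = 0.00814). DESeq2 gave an adjusted p of 0.113 for that step, and leaving out SOMA1 gave an edgeR adjusted p of 0.0505. Over the whole series it had 2 reads in SOMD and 542 in SOMA (ratio SOMA over SOMD 320, 95% counting interval 88.2 to 2651). Hoxc10 and Hoxc11 passed the filter on low counts through the libraries in which they are high.

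Hoxc12 and Hoxc13, which are known from the tail and, for Hoxc13, from hair and nails, were too low to test. Hoxc12 had 4, 2 and 1 reads in SOMA and 0 in every SOMB, SOMC and SOMD library; against the floor of 3 counts over the group, it was at least 2.76-fold lower in SOMD than in SOMA, and at least 1.70-fold at the 95% counting limit, which covers the SOMA reads too. Hoxc13 had 7, 2 and 1 reads in SOMA, 4 reads in SOMB1 alone, and 0 in SOMC and SOMD, at least 3.94-fold lower in SOMD than in SOMA against that floor and at least 2.65-fold at the 95% counting limit. Hoxc10 to Hoxc13 thus each had at most 2 reads in the 4 SOMD libraries together.

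**Figure D3:**
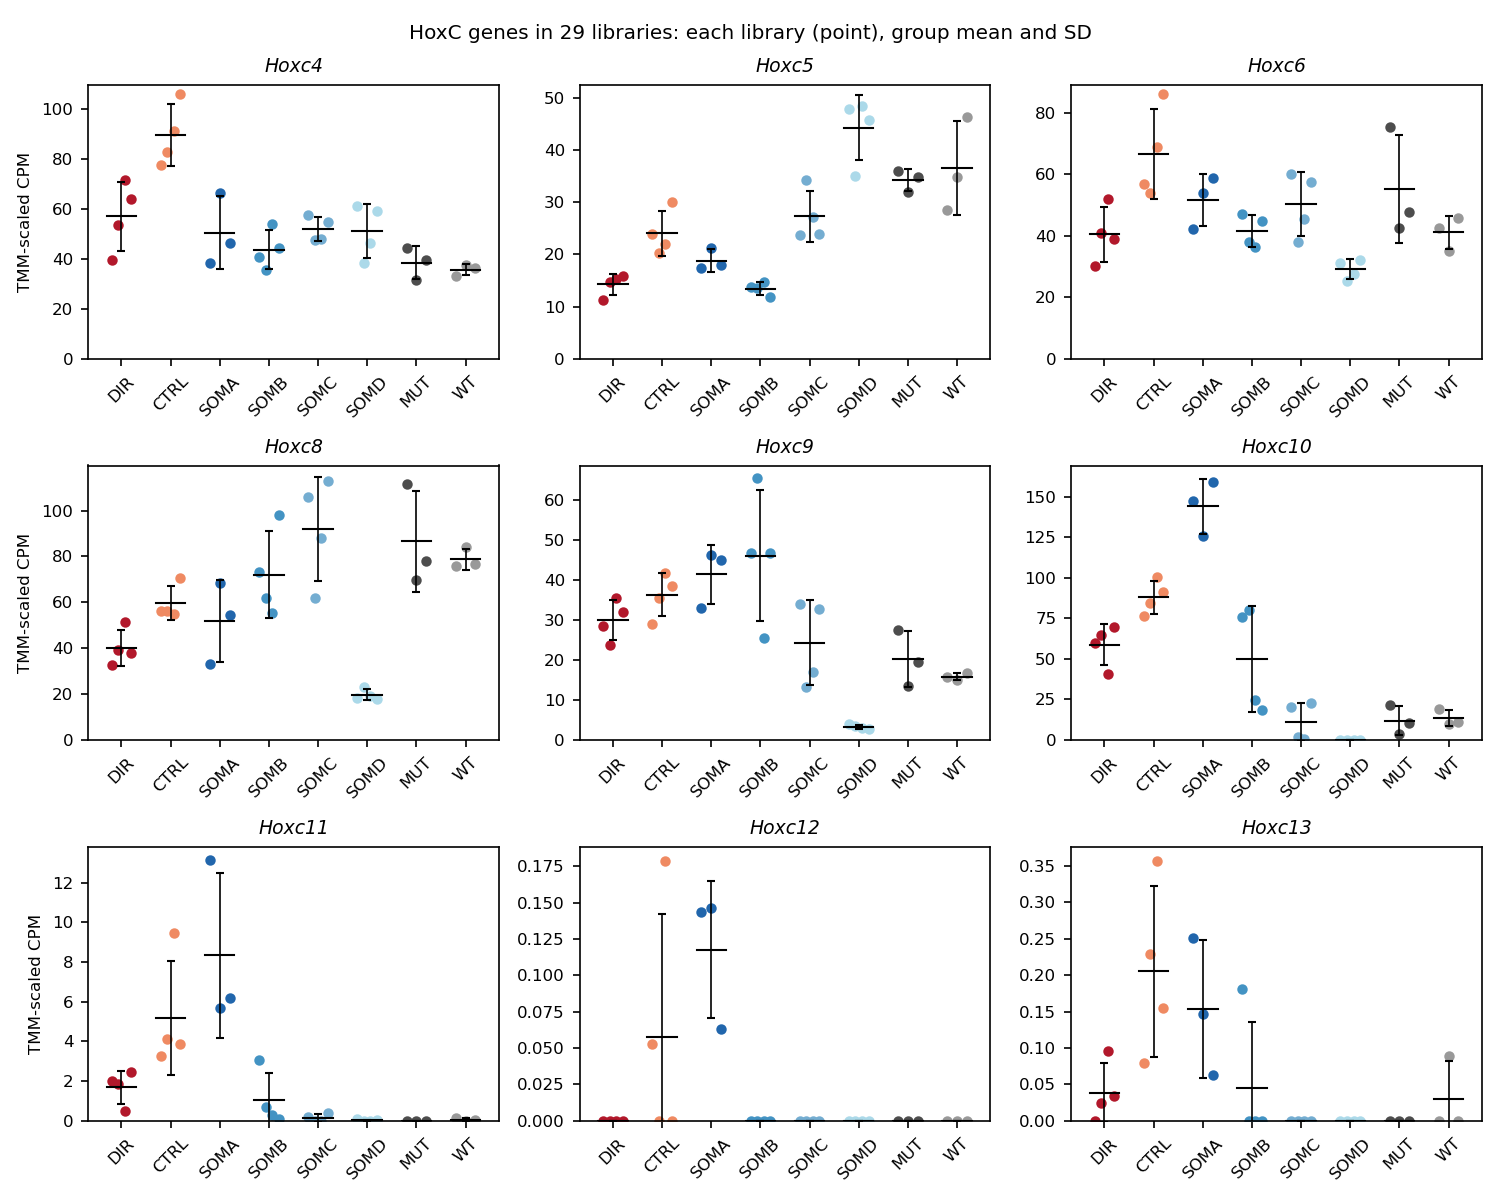
Each panel plots 1 gene, with a point per library, the group mean as a line and the SD as an error bar, in TMM-scaled CPM (linear axis, a scale for each gene), for DIR, CTRL, SOMA to SOMD, MUT and WT. Hoxc10 lies at 126 to 159 CPM in SOMA and at most 0.0711 CPM in SOMD, while Hoxc5 is lowest on average in SOMB (13.4 CPM) and highest in SOMD (44.3 CPM).

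The thoracic members Hoxc8 and Hoxc9, which pattern the rib-bearing vertebrae, had their highest means in the middle of the series. No step up to those means passed the threshold. Hoxc8 had 32.9, 68.3 and 54.3 CPM in SOMA, 73.2, 61.8, 55.2 and 98.3 CPM in SOMB, 106, 61.8, 88.2 and 113 CPM in SOMC, and 18.2, 23.2, 19.2 and 18.0 CPM in SOMD. The first 3 groups overlapped and SOMD lay below all of them. Hoxc8 fell 4.66-fold in SOMD against SOMC (log2 fold change -2.22 ± 0.24, edgeR adjusted p = 0.000274), whereas SOMB against SOMA (0.47 ± 0.24, edgeR adjusted p = 0.323) and SOMC against SOMB (0.37 ± 0.22, 0.519) passed no threshold.

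Hoxc9 had 33.0, 46.3 and 45.1 CPM in SOMA, 46.9, 65.6, 25.4 and 46.8 CPM in SOMB, 34.1, 13.3, 17.0 and 32.8 CPM in SOMC, and 3.84, 3.37, 3.01 and 2.67 CPM in SOMD. All 4 SOMD libraries were below every other library of the series. Hoxc9 fell 7.65-fold in SOMD against SOMC (log2 fold change -2.94 ± 0.35, edgeR adjusted p = 0.000595) and 12.9-fold in SOMD against SOMA (-3.69 ± 0.36, 2.57e-06). Its value in SOMB against SOMA was 0.15 ± 0.30 (edgeR adjusted p = 0.885), with the groups overlapping. In SOMC against SOMB the value was -0.90 ± 0.28 (edgeR adjusted p = 0.192), with SOMC1 and SOMC4 again the higher pair.

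The cervical to upper thoracic members did not move together. Hoxc4, the most 3′ gene, had 38.1, 66.4 and 46.4 CPM in SOMA and 60.9, 38.4, 46.2 and 59.0 CPM in SOMD, with SOMB (35.4 to 53.8) and SOMC (47.7 to 57.3) in the same range. Its log2 difference in SOMD against SOMA was 0.05 ± 0.19 (edgeR adjusted p = 0.889), and it was 0.65 among high-share libraries and -0.42 among low-share libraries. The high-share value rests on 1 SOMA library and the near-identical SOMD pair. Hoxc6 had 42.1, 53.8 and 58.8 CPM in SOMA, 46.9, 37.9, 36.2 and 44.6 CPM in SOMB, 60.1, 38.1, 45.4 and 57.5 CPM in SOMC, and 31.2, 25.2, 27.5 and 32.3 CPM in SOMD. SOMD was again below every other library of the series, and Hoxc6 fell 1.71-fold in SOMD against SOMC (log2 fold change -0.77 ± 0.15, edgeR adjusted p = 0.00958), a call that was lost with the near-identical pairs summed (adjusted p = 0.0933).

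Hoxc5, a cervical gene that lies between those 2 genes, went the other way. It had 17.3, 21.3 and 17.9 CPM in SOMA, 13.7, 13.5, 14.7 and 11.9 CPM in SOMB, 23.7, 34.4, 27.1 and 24.0 CPM in SOMC, and 48.0, 35.1, 48.5 and 45.8 CPM in SOMD. No 2 neighbouring groups overlapped. Hoxc5 rose in SOMC against SOMB by 1.02 ± 0.13 on the log2 scale, or 2.03-fold (edgeR adjusted p = 0.00189), rose again in SOMD against SOMC by 0.72 ± 0.13, or 1.65-fold (0.00566), and rose 2.39-fold in SOMD against SOMA (1.01e-05). With the near-identical pairs summed, the value in SOMD against SOMC was 0.64 and no longer passed (edgeR adjusted p = 0.0972). It fell in SOMB against SOMA (log2 fold change -0.49 ± 0.14, edgeR adjusted p = 0.0425), a call that was lost with the replicate number as a block (adjusted p = 0.0596), with the near-identical pairs summed (0.0596) and without any 1 of 6 of the 7 libraries (0.0520 to 0.209, SOMB3 being the exception).

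**Figure D4:**
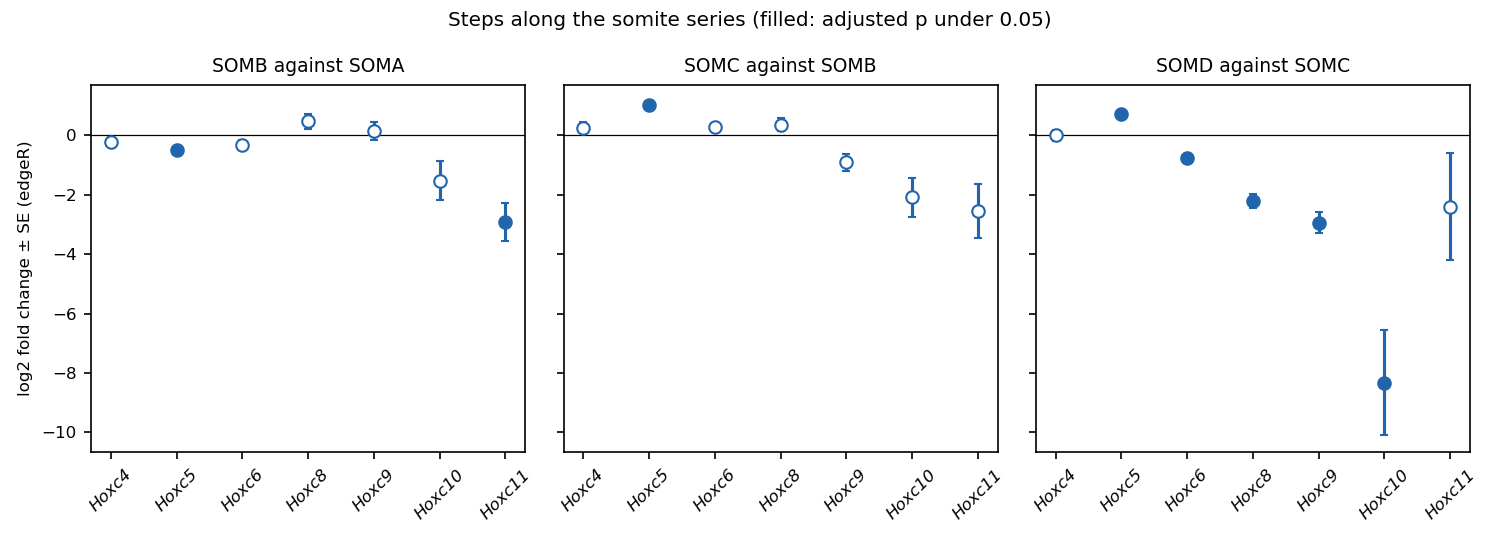
Points give the edgeR log2 fold change (± SE) of the 7 tested genes for SOMB against SOMA, SOMC against SOMB and SOMD against SOMC; filled points have an adjusted p under 0.05. In the last step the values of Hoxc4 to Hoxc9 lie between 0.72 for Hoxc5 and -2.94 for Hoxc9, and those of Hoxc10 (-8.33) and Hoxc11 (-2.40) rest on 2 SOMD reads each.

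By step, 7 of the 9 members were tested. In SOMB against SOMA 2 members were lower, where 4.55% of all genes tested were, and none was higher, where 4.13% were (at an unadjusted p under 0.05 by edgeR 3 lower and 0 higher, against 9.49% and 9.62% of all genes, and by DESeq2 1 and 0). In SOMC against SOMB 1 member was higher, against 0.486% of all genes, and 0 lower, against 0.341%. At an unadjusted p under 0.05, 1 was higher and 3 lower, against 6.87% and 5.13% of all genes, and 0 were lower by DESeq2. In SOMD against SOMC 1 member was higher and 4 lower, against 1.26% and 1.07% of all genes, and with the near-identical pairs summed 0 were higher and 2 lower. In SOMD against SOMA 1 was higher and 5 lower, against 10.8% and 8.92%. Without Hoxc10 and Hoxc11, which passed the filter through the libraries in which they are high, 5 members were tested, of which 1 was lower in SOMB against SOMA, 0 in SOMC against SOMB, 3 in SOMD against SOMC and 3 in SOMD against SOMA. The steps share libraries and are not independent of each other. In the within-split values, SOMD against SOMC kept its sign on both sides for Hoxc5 (0.98 among high-share and 0.44 among low-share libraries), Hoxc6 (-0.89 and -0.66), Hoxc8 (-2.60 and -1.82) and Hoxc9 (-3.36 and -2.25). The high-share libraries of SOMC and SOMD are the near-identical pairs, so that side may hold only 1 separate observation per group. With only the low-share libraries (2 against 2) no member passed the threshold in that step.

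Other Hox genes of the A, B and D clusters, 29 of 30 of them tested, gave 2 higher and 13 lower in SOMD against SOMA, with a median log2 difference of -0.63, against 0.00 over all genes tested. In SOMB against SOMA 2 were higher and 8 lower (median -0.58, all genes 0.01), in SOMC against SOMB 0 and 0 (median -0.08), and in SOMD against SOMC 3 and 4 (median 0.16). Paralogues are the genes of the same number in other clusters. Of these, Hoxb5 rose in SOMD against SOMA like Hoxc5 (0.81 ± 0.13, edgeR adjusted p = 0.000295), while Hoxa5 did not pass (0.17 ± 0.20, 0.611). In the same comparison Hoxa10 (-2.90 ± 0.84, edgeR adjusted p = 0.0223) and Hoxd11 (-3.78 ± 0.83, 0.00364) fell. Hoxa4 rose (1.12 ± 0.15, edgeR adjusted p = 5.56e-05) and Hoxd4 fell (-0.95 ± 0.21, 0.00389), where Hoxc4 gave 0.05. Hoxb9 was at 105 CPM in SOMD and 305 CPM in SOMC and fell in that step (-1.53 ± 0.21, edgeR adjusted p = 0.00146). The 7 tested genes numbered 10 to 13 had a median log2 difference of 1.51 in that step, opposite in sign to Hoxc10, and 0 passed by edgeR (at an unadjusted p under 0.05, Hoxd10 was higher and Hoxa13 lower). Hoxd9, named with Hoxd10 after their values were seen, had 60.7 ± 27.3 CPM in SOMD and 30.6 ± 8.59 CPM in SOMC (SD, n = 4 each), opposite in direction to Hoxc9 (1.01 ± 0.30, edgeR adjusted p = 0.101). The value of Hoxd10 was 1.89 ± 0.76 (edgeR adjusted p = 0.302).

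Of 12 regulators and partners of Hox genes, 3 rose and 2 fell in SOMD against SOMA (median 0.11). The caudal-type factors Cdx2 and Cdx4, activators of posterior Hox genes in the tail bud, averaged 0.217 and 0.0483 CPM in SOMD, against 39.7 and 61.3 CPM in SOMA (edgeR adjusted p = 1.27e-07 and 6.52e-08). Those that rose were the homeodomain partners Pbx3 (0.82 ± 0.10), Meis1 (0.33 ± 0.10) and Meis2 (0.52 ± 0.08). In SOMB against SOMA Pbx3 rose and Cdx2 and Cdx4 fell, Cdx4 also fell in SOMC against SOMB, and Cdx2 in SOMD against SOMC. Of 9 protein-coding genes within 300 kb of the cluster that are in the files, 7 were tested, and Smug1, a DNA repair glycosylase, was the 1 that passed in SOMD against SOMA (-0.46 ± 0.08, edgeR adjusted p = 0.000816). Hotair, a lncRNA transcribed from the opposite strand between Hoxc12 and Hoxc11, was named after its values were seen. It had 3.63, 1.46 and 0.822 CPM in SOMA libraries 1, 3 and 4 and 0 in every SOMD library.

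In culture without inducers Hoxc10 and Hoxc11 were still detected in every library. CTRL libraries had a mean gene number of 6.94 to 7.23, against 7.68 to 8.24 in SOMA, and 22.4 to 28.6% of the level per kb in Hoxc10 to Hoxc13, against 34.5 to 50.2% in SOMA. Hoxc10 had 76.4, 84.2, 100.4 and 91.0 CPM in CTRL, against 147, 126 and 159 CPM in SOMA, without overlap. It fell 1.65-fold in CTRL against SOMA (log2 fold change -0.73 ± 0.17, edgeR adjusted p = 0.0118). Hoxc4 had 77.7, 82.5, 91.1 and 106 CPM in CTRL, against 38.1, 66.4 and 46.4 CPM in SOMA. It rose by 0.81 ± 0.23, or 1.76-fold, also without overlap (edgeR adjusted p = 0.0292).

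These 2 calls, 1 higher and 1 lower of 7 tested, stand against 11.5% and 8.01% of all genes. Hoxc4 missed the threshold without CTRL2, CTRL3, CTRL4, SOMA1 or SOMA4 (edgeR adjusted p = 0.0505 to 0.114), and Hoxc10 without SOMA4 (0.0621) and with all 29 libraries in 1 fit (0.419). The others did not pass the threshold, with log2 differences of 0.34 ± 0.17 for Hoxc5, 0.35 ± 0.21 for Hoxc6, 0.19 ± 0.23 for Hoxc8, -0.20 ± 0.18 for Hoxc9 and -0.73 ± 0.48 for Hoxc11. Hoxc13 was detected at 3, 8, 8 and 5 reads in CTRL, against 7, 2 and 1 in SOMA, and Hoxc12 at 2, 0, 4 and 0, against 4, 2 and 1. SOMA also includes the most recently segmented somite, whereas CTRL is described only as of presomitic mesoderm origin. Culture, its handling and a difference in starting tissue cannot be told apart from each other here. Summed endothelial markers (Cdh5, Kdr, Pecam1, Tek) were at 181 to 242 CPM in CTRL, against 43.9 to 163 CPM in SOMA, and presomitic markers at 181 to 355 CPM in CTRL, against 408 to 606 CPM in SOMA; their part in the Hox differences was not tested.

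Of the regulators, Cyp26a1, which degrades retinoic acid, rose in CTRL against SOMA (1.85 ± 0.43, edgeR adjusted p = 0.0116), and Aldh1a2, which makes it, fell (-1.98 ± 0.37, 0.00403). Cdx1 (-1.67 ± 0.37, edgeR adjusted p = 0.00935) and Gdf11, a signal for the trunk to tail transition (-0.47 ± 0.13, 0.0239), fell too. Other Hox genes gave 1 higher, Hoxb9 (0.71 ± 0.18), and 1 lower, Hoxb1 (-0.95 ± 0.24), of 29 tested (median -0.10, all genes 0.02), and of 8 tested neighbours of the cluster Calcoco1 rose (0.92 ± 0.14).

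With LDN and SAG all 7 tested members were lower in DIR than in CTRL, and none passed the threshold. The values ran from -0.28 ± 0.16 for Hoxc9 to -1.59 ± 0.47 for Hoxc11, with edgeR adjusted p from 0.103 to 0.430. Hoxc5 had 11.2, 14.8, 15.2 and 15.8 CPM in DIR, against 24.0, 20.2, 22.0 and 30.2 CPM in CTRL. Hoxc10 had 59.995, 64.8, 40.5 and 69.6 CPM in DIR, against 76.4, 84.2, 100.4 and 91.0 CPM in CTRL. Hoxc11 had 1.99, 1.84, 0.479 and 2.44 CPM in DIR, against 3.29, 4.15, 9.45 and 3.88 CPM in CTRL. For these 3 genes and for Hoxc4, Hoxc6 and Hoxc8 no DIR library reached the lowest CTRL library, and for Hoxc9 the groups overlapped. How many of all genes tested separate in this way was not counted, so this describes the libraries only.

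At an unadjusted p under 0.05 edgeR had 6 of the 7 lower and 0 higher, where 8.25% and 7.1% of all genes were, and after adjustment 0 and 0, where 0.444% and 0.303% of all 14190 genes tested were lower and higher. DESeq2 called 3 lower (Hoxc5, Hoxc6 and Hoxc11) and 0 higher, against 2.08% and 1.42% of all genes. With all 29 libraries in 1 fit edgeR called 3 lower (Hoxc4, Hoxc5 and Hoxc6) and 0 higher, against 4.47% and 5.26% of all genes. The make-up of the cluster overlapped between the groups, with a mean gene number of 6.79 to 7.51 in DIR and 6.94 to 7.23 in CTRL. The comparison shares its CTRL libraries with CTRL against SOMA. Among other Hox genes Hoxa13 fell (-1.996 ± 0.36, edgeR adjusted p = 0.0419), 0 of 29 rose and the median was -0.58, against -0.01 over all genes.

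Multiply aligned reads made 22.3 to 25.4% of the total in DIR1, DIR2 and CTRL1, against 15.9 to 19.5% in the remaining 5 cultured libraries. Within each of these sets the 7 genes were lower in DIR, for Hoxc5 by a log2 difference of -0.88 in the first set and -0.64 in the second. The first set holds 1 CTRL library, so its value has no spread on that side. Summed lateral plate markers were lower as well, at 120 to 170 CPM in DIR, against 278 to 354 CPM in CTRL. Of these, 6 of 7 were above 1 CPM in both groups. Foxf1 was either missing from the files or without counts, which cannot be told apart here. The part of these markers in the Hox values was not tested.

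**Figure D5:**
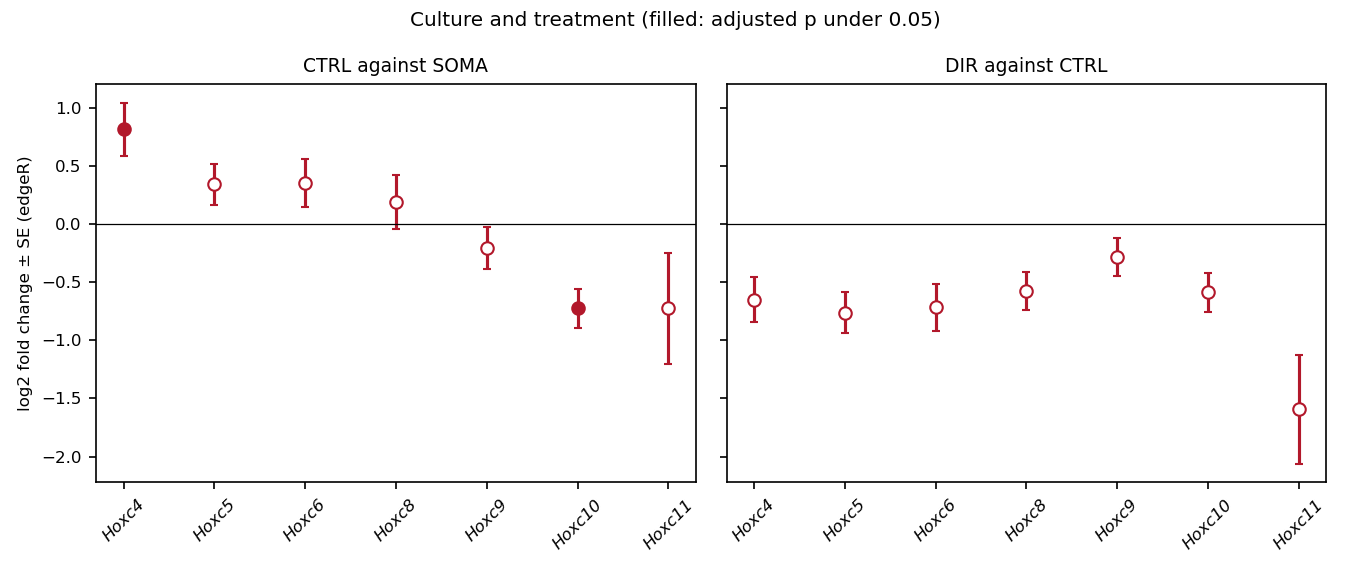
Points give the edgeR log2 fold change (± SE) of the 7 tested genes for CTRL against SOMA and DIR against CTRL; filled points have an adjusted p under 0.05. On the CTRL against SOMA side the filled points are Hoxc4 (0.81) and Hoxc10 (-0.73), while on the DIR against CTRL side all lie below 0, from -0.28 to -1.59.

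In whole trunk, MUT and WT overlapped for every member. Hoxc8 was the gene with the highest level per kb in both, at 46.3 ± 11.9 CPM per kb in MUT and 42.2 ± 2.44 in WT (SD, n = 3 each). Hoxc10 had 21.2, 3.77 and 10.3 CPM in MUT, against 18.8, 9.68 and 11.1 CPM in WT, and Hoxc11 had 0 reads in every MUT library, against 5, 0 and 1 in WT. None of the 6 tested members passed, with edgeR adjusted p from 0.360 to 0.922; at an unadjusted p under 0.05 edgeR and after adjustment DESeq2 also had 0 in either direction. Over all genes 0.331% were higher and 0.0069% lower after adjustment, and 8.71% and 6.74% at an unadjusted p under 0.05. The largest value was for Hoxc6, at 75.3, 42.5 and 47.5 CPM in MUT and 42.5, 35.2 and 45.6 CPM in WT (0.42 ± 0.20). Xist, the RNA of the inactive X chromosome, was at 2.13, 1812 and 1811 CPM in MUT and 2.96 to 10.7 CPM in WT, so the groups differ in this sex-linked RNA. With Xist as a term in the fit still 0 members passed.

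Ordered by mean level over the 8 groups, most neighbours overlapped. The order was set by the same values, and such gaps were not counted over all genes, so they describe these libraries only. Hoxc10 had 3 gaps between neighbours, SOMA above CTRL, CTRL above DIR, and SOMC above SOMD. Hoxc4 had 1, with CTRL (89.3 ± 12.4 CPM) above DIR (57.0 ± 13.8 CPM; SD, n = 4 each), and Hoxc5, Hoxc8, Hoxc9 and Hoxc11 had 1 each. Hoxc6 had none, from 66.4 ± 14.6 CPM in CTRL to 29.03 ± 3.28 CPM in SOMD (SD, n = 4 each). MUT and WT lay next to each other in this order for Hoxc4, Hoxc5, Hoxc8, Hoxc9 and Hoxc10. The trunk libraries are unsorted, so their levels cover other tissues as well.

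As a description over 27 libraries (near-identical pairs counted once), which share groups and preparation, Hoxc9 and Hoxc10 were the members most alike in log2 level (Pearson r = 0.89) and Hoxc5 and Hoxc9 the least (r = -0.72). Among 12776 other genes, Hoxc10 was most like Gm53 (r = 0.95), Hey2 (0.91) and Lypd6 (0.90), and Gm53 also led for Hoxc9 (0.88), before Pitx1 (0.87) and 2610528A11Rik (0.86). Hoxc11 was most like Hoxa13 (0.95), Hoxd11 (0.94) and Tbx4 (0.94). For the low-numbered members the highest values were Heatr7a for Hoxc4 (0.88), Gata3 for Hoxc6 (0.77) and Obfc2a for Hoxc8 (0.79). Sec1 and Pax7 were among the 3 genes most like Hoxc5 (0.81 each).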

How the data were processed

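RNA-seq of 29 libraries in 8 groups was analysed. Per the labels' protocols, RNA was extracted with Trizol and libraries were made with the TruSeq RNA v2 kit, which does not mark strand, with 11 rounds of PCR. The values deposited by the authors are raw whole-number counts for each gene. The tools TopHat2 2.0.9, Cufflinks, HTSeq 0.6 and DESeq2 1.10 and the build mm10 are listed in the submitters' processing notes. The sources used here give neither the annotation nor the strand setting. Each file also holds 5 summary lines (no feature, ambiguous, not unique and the like), which were left out of library sizes.

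The counts were fitted in R 4.3.3 with edgeR 4.0.16 (quasi-likelihood F test, TMM scaling, filterByExpr with a minimum count of 10 and total of 15, Benjamini-Hochberg adjustment over all genes tested, threshold 0.05). The 15 libraries of the somite series were fitted together. CTRL against SOMA was tested in a fit of the SOMA, CTRL and DIR libraries, so DIR shares its estimate of the spread. DIR against CTRL and MUT against WT were each fitted alone. CPM are TMM-scaled, CPM per kb are divided by the length of the gene's principal GENCODE M21 transcript, and the mean gene number is the mean of the numbers in the gene names weighted by CPM per kb. A group with 0 counts was given against a floor of 3 counts over the group. Depth ran from 11541131 to 44363411 gene reads. Libraries of the same replicate number varied together in SOMB and SOMA (correlation of deviations 0.46 to 0.52 over 3 pairs). They did so in SOMD and SOMC too (0.46 to 0.57 over 4 pairs), where replicates 1 and 4 are near-identical within each group. Correlations were -0.30 to 0.49 in SOMC against SOMB and -0.23 to 0.38 in SOMD against SOMA. They were -0.24 to 0.068 in CTRL against SOMA, -0.67 to 0.81 in DIR against CTRL and 0.00085 to 0.38 in MUT against WT. Any pairing is known from the data and not from the labels, and the main fits leave it out.

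Alternatives were other scalings, no filter, DESeq2 1.42.0, all libraries in 1 fit, the replicate number as a block, shares of unassigned or multiply aligned reads or the Xist level as a term, subsets of libraries by those shares, summed near-identical pairs, and each library left out. The subset of low-share somite libraries was chosen after seeing the data. The members and gene lists were chosen with earlier results of these data known. Genes named are all 9 members, the 3 genes most like each tested member (log2 of CPM plus 0.5, mean of at least 1 CPM), up to 4 paralogues of the same number that passed, and the listed regulators past the threshold; the rest are counted. A few genes that this rule names, and 1 sequence, are not reported here. Figures were drawn with matplotlib 3.10.9.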

Additional observations from a re-analysis of the deposited data

Results flagged for a closer look

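In 39 sets of 1 gene in 1 group of 4 libraries, 4 had a library far from the other 3, measured as its gap to the nearest library divided by the whole range; chance gives about 1 in 20, a share that does not hold for sets with 3 libraries at 0, where the ratio is 1 by its construction. Hoxc8 was at 70.7 CPM in CTRL4, against 56.3 CPM in the next library (gap over range 0.915). Hoxc11 was at 9.45 CPM in CTRL3, against 4.15 CPM in the next (0.861). Hoxc10 was at 0.0711 CPM in SOMD4, from 2 reads, where the other SOMD libraries had 0 (gap over range 1). Hoxc13 was at 0.181 CPM in SOMB1, from 4 reads, where the other SOMB libraries had 0 (1).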

How the results depend on the processing

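Of the 9 members, those called in SOMD against SOMA (1 higher, 5 lower) gave the same counts under every alternative. In SOMB against SOMA the count of members lower, 2, was 1 with DESeq2, with all 29 libraries in 1 fit, with the replicate block and with near-identical pairs summed, and 0 to 2 with 1 library left out (0 without SOMA1). With low-share libraries only, Hoxc5 was lost in that step (edgeR adjusted p = 0.135) and Hoxc6 was called lower instead (-0.52, 0.0332). In SOMC against SOMB the count higher, 1, was 0 with low-share libraries only. In SOMD against SOMC the counts, 1 higher and 4 lower, were 0 and 2 with near-identical pairs summed (Hoxc8 and Hoxc9), 0 and 0 with low-share libraries only, and 1 and 3 to 4 with 1 library left out. In CTRL against SOMA the counts, 1 and 1, were each 0 to 1 with 1 library left out, and 0 lower with all 29 libraries. In DIR against CTRL the count lower, 0, was 3 with DESeq2, 3 with all 29 libraries and 1 (Hoxc5) with only CTRL1, DIR1 and DIR2, where the lone CTRL library is assumed to vary like the DIR libraries. The block changed no other call. The causes were not tested, beyond the smaller number of libraries in subsets.

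Signs reversed only for differences that passed no threshold. Hoxc4 in SOMD against SOMC (0.0013) was -0.0017 with RLE factors, -0.0059 without a filter, -0.0040 with DESeq2, -0.0026 with all 29 libraries, -0.011 with the replicate block, -0.041 with pairs summed, -0.0046 with the unassigned share as a term, -0.16 with low-share libraries and -0.091 to 0.11 with 1 library left out. Hoxc4 in SOMD against SOMA was -0.034 with pairs summed, -0.40 with low-share libraries and -0.12 to 0.30 with 1 library left out. Hoxc9 in SOMB against SOMA was -0.00084 with low-share libraries and -0.053 to 0.35 with 1 left out, and Hoxc4 there -0.38 to 0.047. Hoxc8 in CTRL against SOMA was -0.042 to 0.46. In MUT against WT, Hoxc10 was 0.54 with Xist as a term, and with 1 library left out Hoxc4 ran from -0.012 to 0.23, Hoxc5 from -0.24 to 0.11, Hoxc8 from -0.097 to 0.27 and Hoxc10 from -0.91 to 0.26. Depth limits Hoxc12 and Hoxc13 in every group, and Hoxc11 in SOMC, SOMD, MUT and WT.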
